A study of Mus musculus with 4 samples.

Results

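Toll-like receptors and the proteins that hand ligands to them or relay their signal were examined at the transcript level in MDSCs cultured with or without EGCG. The 10 genes were taken by name from the count table and comprise 7 receptors (Tlr1, Tlr2, Tlr4, Tlr6, Tlr7, Tlr9 and Tlr13), the co-receptors Cd14 and Ly96 and the adaptor Myd88, out of 53465 genes listed. All 10 matched exactly 1 entry each, and all 10 were among the 14682 genes with enough counts to be tested. The libraries came from spleens of male BALB/c mice that carried tumors of 4T1, a transplantable mammary carcinoma of that strain, and that were 6 weeks old when the tumor cells were injected. MDSCs, immature myeloid cells that accumulate in such hosts and restrain T cells, were pulled from the spleen with beads against Gr-1 (Ly-6G/Ly-6C) and cultured for 6 h. The control group (2 libraries) received medium, and the EGCG treatment group (2 libraries) received 5 μg/mL of EGCG, the main catechin of green tea. Every library therefore came from tumor-bearing animals, and no healthy spleen or unsorted cells were compared. The labels give day 21 after tumor injection, whereas the methods place the sorting at an earlier day. Whether replicates are separate mice or separate cultures is given in neither source, so p values measure only how far these libraries spread, which may be technical.

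Toll-like receptors recognise molecules of microbes and of damaged cells. At the cell surface, TLR2 pairs with TLR1 or TLR6 to bind lipopeptides, and TLR4 binds lipopolysaccharide through its partner MD-2, the product of Ly96, to which CD14 delivers the ligand. TLR7, TLR9 and TLR13 sit in endosomes and read single-stranded RNA, unmethylated CpG DNA and bacterial ribosomal RNA. All of them signal through MyD88, which recruits IRAK kinases and TRAF6 and leads to NF-κB activation and to transcription of cytokines and chemokines. Neutrophils and monocytes, the cells that the Gr-1 sort collects, are known to respond to these ligands.

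The 4 libraries held between 17767318 and 18390385 counts. The cell type was checked against marker lists. Transcripts of 11 neutrophil markers, among them S100a8, S100a9 and Ly6g, summed to 62125 to 82596 CPM (counts relative to the library size, scaled by TMM), while 9 monocyte markers summed to 1248 to 1675 CPM and 10 macrophage markers to 325.5 to 428.7 CPM. B cell markers were also present (8 genes, 1797 to 2044 CPM), and plasmacytoid dendritic cell markers were low (6 genes, 51.7 to 58.8 CPM). No marker of these lists was at 0. The 6 epithelial markers listed for 4T1 cells summed to 22.7 to 26.7 CPM, with Cdh1 at 16.21 to 22.02 CPM and Epcam at 3.30 to 5.54 CPM, while the keratins Krt5 and Krt14 had no count in any library. Most of this sum was Cdh1. The keratin Krt8 had 0 to 2 counts per library and Krt18 had 10 to 24. Whether 4T1 cells were present was not tested.

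The members covered a wide range of levels. Compared per kilobase of exonic length, Cd14 had the highest level, 310.4 ± 15.0 CPM per kilobase in control and 331.1 ± 28.9 in EGCG libraries (SD, n = 2 each). CD14 is a surface protein of myeloid cells without a signaling domain of its own. Tlr2 followed with 100.5 ± 4.599 and 92.9 ± 8.20 CPM per kilobase, above Tlr13 (60.8 ± 5.15 and 59.5 ± 4.15) and Myd88 (58.3 ± 3.34 and 61.3 ± 1.09). Tlr13 and Myd88 could not be ordered, since their library values overlapped and Tlr13 was the higher in 3 of 4 libraries. Next came Tlr1 (21.3 ± 0.184 and 20.9 ± 0.717) and Tlr6 (19.1 ± 0.554 and 19.8 ± 1.19), which overlapped as well. The lowest members were Ly96 (11.5 ± 1.52 and 15.3 ± 2.22), Tlr4 (13.5 ± 0.418 and 13.2 ± 0.200), Tlr9 (11.2 ± 0.239 and 10.9 ± 1.47) and Tlr7 (8.97 ± 0.329 and 7.57 ± 0.131 CPM per kilobase). Ly96 and Tlr4 overlapped, each being the higher in 2 of 4 libraries, whereas Tlr4 stood above Tlr9 and Tlr9 above Tlr7 in all 4 libraries. The ranges of Cd14, Tlr2 and the pair Tlr13 and Myd88 did not touch.

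**Figure D1:**
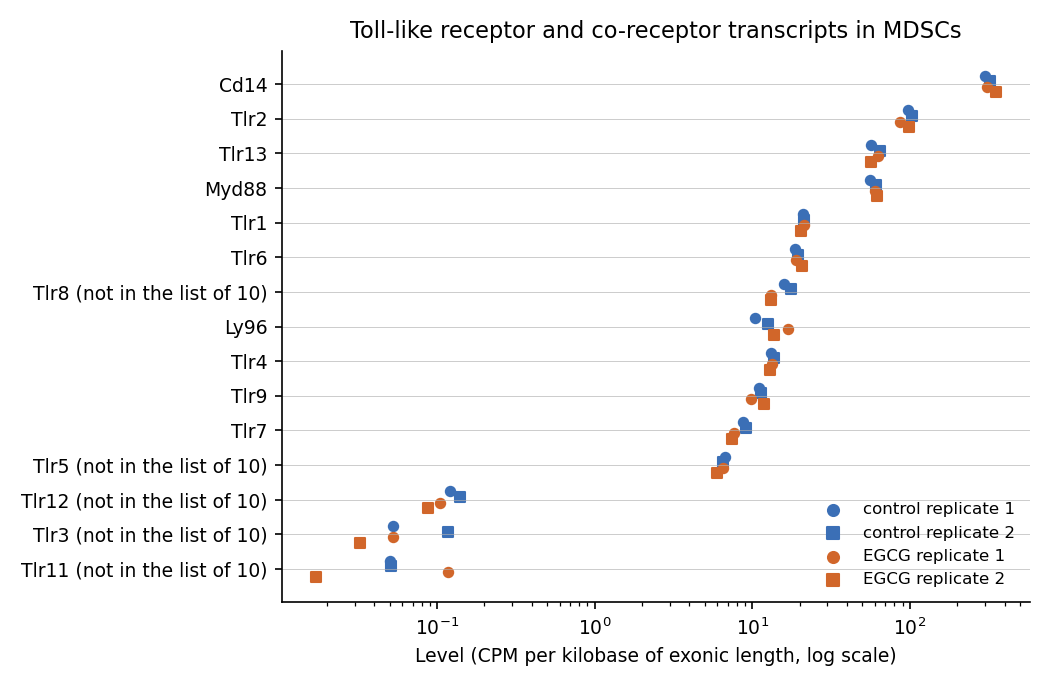
Level of each Toll-like receptor, co-receptor and adaptor transcript in CPM per kilobase of exonic length (log scale), 1 point per library, in the order of the mean of the 4 libraries. Cd14 lies highest (299.8 to 351.5), Tlr2 second (87.1 to 103.8), and Tlr3, Tlr11 and Tlr12, which are not among the 10 members, lie below 0.15.

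The remaining 5 Toll-like receptor genes of the mouse place the members within the family. Tlr8, an RNA sensor of endosomes, was at 13.2 to 17.7 CPM per kilobase and Tlr5, the flagellin receptor, at 5.98 to 6.76. Tlr3, Tlr11 and Tlr12 were too low to be tested. Tlr3, the receptor for double-stranded RNA, which signals through TRIF in place of MyD88, had counts of 5 and 11 in control and 5 and 3 in EGCG libraries. The counts were 3, 3, 7 and 1 for Tlr11 and 7, 8, 6 and 5 for Tlr12, both sensors of profilin, in control replicates 1 and 2 and EGCG replicates 1 and 2. The exact 95% Poisson interval of the highest of these counts, 11, ran from 5.49 to 19.7 and covers counting error only.

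None of the members passed the test for differential expression. At an adjusted p under 0.05 (quasi-likelihood test of edgeR, Benjamini-Hochberg adjustment across every tested gene), 0 of 10 members were called, where 0.150% of all tested genes were. DESeq2 and limma-voom also called 0 members, although DESeq2 gave Ly96 no adjusted p. At an unadjusted p under 0.05, 2 members passed, Ly96 and Tlr7, against 12.2% of all tested genes. Groups without overlap were found for these 2 members, whereas 42.7% of all tested genes had such separated groups. Of the members, 4 had higher and 6 had lower mean expression with EGCG, and 49.4% of all tested genes were lower. The median log2 fold change of the members was -0.026, beside 0.0031 for all tested genes, and it was above 0 without control replicate 2 (0.027) or without EGCG replicate 1 (0.033). The 95% interval of the log2 fold change included 0 for 8 members, lay within a 1.5-fold change either way for 9 members and within a 2-fold change for all 10. An exact two-sided permutation test of these 4 libraries cannot give a p below 0.333, so that no member could pass one.

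**Figure D2:**
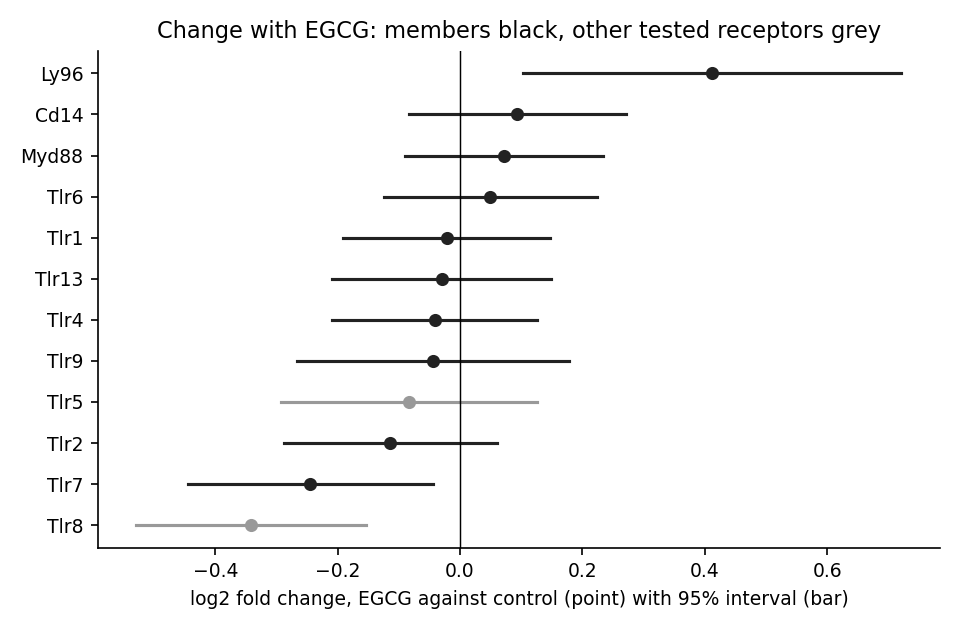
Log2 fold change (EGCG against control, points) with its 95% interval (bars) from edgeR's quasi-likelihood fit, for the 10 members in black and for Tlr5 and Tlr8 in grey. The intervals of Ly96, Tlr7 and Tlr8 do not include 0, and the adjusted p values of these genes over all tested genes are 0.277, 0.321 and 0.138.

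Among the parts of the lipopolysaccharide receptor, Ly96 (ENSMUSG00000025779, chromosome 1 of GRCm38, 16688051 to 16709611) had the lowest p of the members. Control libraries held 195 and 230 counts of it and EGCG libraries 313 and 251, that is, 10.7 and 12.9 CPM against 17.3 and 14.1 CPM. Both EGCG libraries were above both control libraries, and control replicate 2 and EGCG replicate 2 lay close together. The neutrophil markers, summed, were at 62125 and 73637 CPM in control and 82596 and 73388 CPM in EGCG libraries (8 of 11 higher, 0 called, 1 at an unadjusted p under 0.05, none at 0). That 1 marker, S100a8, had the same order of libraries as Ly96, with 14461 and 18163 CPM against 22838 and 19477 CPM. Mmp9 (2929 and 2937 against 3185 and 3287 CPM) and Ngp (6779 and 7513 against 7605 and 8085 CPM) were also higher in both EGCG libraries. Ltf was lower in both EGCG libraries (3875 and 3841 against 3716 and 3626 CPM), and Mmp8 and Cxcr2 had lower means. Over all tested genes, 42.7% had groups without overlap, 12.2% had an unadjusted p under 0.05 and 49.4% were lower. Most of the neutrophil sum was S100a8 and S100a9, and the groups of S100a9 overlapped (22455 and 28293 against 31668 and 27007 CPM). The part of neutrophils in the Ly96 values was not tested. The log2 fold change of Ly96 was 0.41 (standard error 0.14, 95% interval from 0.10 to 0.72), with an unadjusted p of 0.0127 and, from edgeR, an adjusted p of 0.277. Leaving out EGCG replicate 2 took it past the threshold (log2 fold change 0.55, adjusted p of 0.0465), and it was 0.26 without EGCG replicate 1 (adjusted p of 0.646) and 0.29 without control replicate 1 (0.848). Over the alternatives of filter, scaling, test and correction other than DESeq2, which gave it none, its adjusted p ran from 0.242 to 0.713. Ly96 was the member with the fewest counts, and the exact 95% Poisson intervals of its counts in control replicate 2 (201.2 to 261.7) and EGCG replicate 2 (220.9 to 284) overlapped.

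Tlr4 (ENSMUSG00000039005, chromosome 4, 66827584 to 66930284) encodes the receptor chain that MD-2 sits on. It was at 73.55 and 76.8 CPM in control and 73.85 and 72.3 CPM in EGCG libraries, with overlapping groups. The log2 fold change of Tlr4 was -0.041 (standard error 0.078), and its interval reached from 0.87-fold to 1.09-fold. Per kilobase, the ratio of Ly96 to Tlr4 was 0.790 and 0.912 in control and 1.27 and 1.06 in EGCG libraries, a ratio chosen after its values were seen and not tested. Cd14 (ENSMUSG00000051439, chromosome 18, 36725067 to 36726798) was at 519.2 and 555.9 CPM in the control libraries and at 538.1 and 608.8 CPM in the EGCG libraries. Its groups overlapped, with EGCG replicate 2 the highest library, and the log2 fold change was 0.093 (standard error 0.083, edgeR adjusted p of 0.700). Without EGCG replicate 2 the log2 fold change of Cd14 was 0.0026, and without EGCG replicate 1 it was 0.18.

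**Figure D3:**
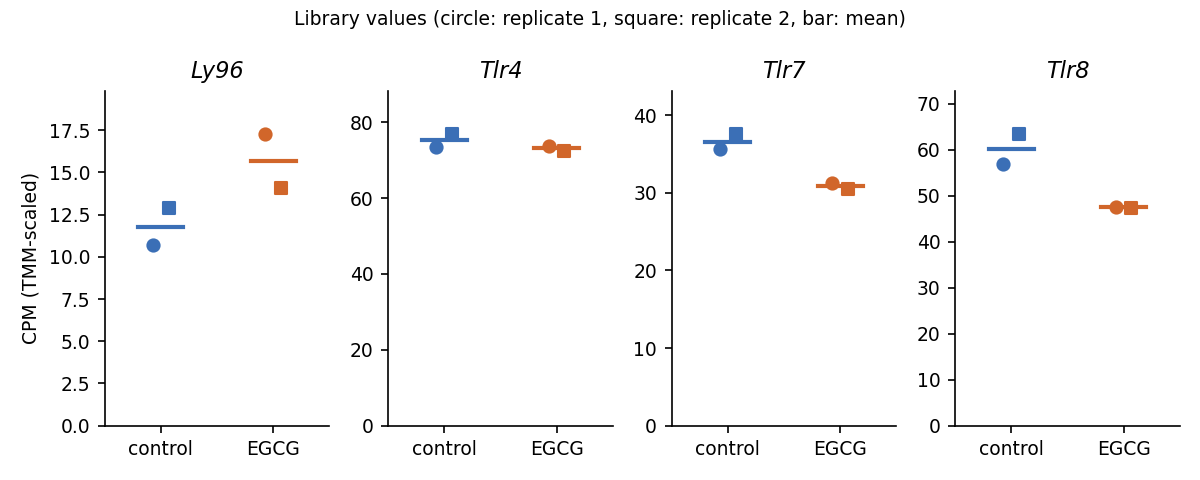
CPM of Ly96, Tlr4, Tlr7 and Tlr8 in each library (circle for replicate 1, square for replicate 2, bar for the group mean of 2 libraries), each axis starting at 0. The EGCG libraries lie above the control libraries for Ly96 and below them for Tlr7 and Tlr8, while those of Tlr4 overlap (73.55 and 76.8 against 73.85 and 72.3 CPM).

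The receptors of lipopeptides showed small differences. Tlr2 (ENSMUSG00000027995, chromosome 3, 83836272 to 83841767) is the shared chain of both lipopeptide receptors. Its level was 293.2 and 312.8 CPM in control and 262.5 and 297.5 CPM in EGCG libraries, with EGCG replicate 1 below the other libraries and EGCG replicate 2 between the controls. The log2 fold change of Tlr2 was -0.11 (standard error 0.081, edgeR adjusted p of 0.619), and it was -0.024 without EGCG replicate 1 and -0.21 without EGCG replicate 2. Tlr1, the partner for triacylated lipopeptides, was at 70.8 and 71.6 CPM in control and at 71.8 and 68.4 CPM in EGCG libraries. Tlr6, the partner for diacylated lipopeptides, was at 69.8 and 72.7 CPM and at 70.6 and 76.9 CPM. For both partners the groups overlapped, and the log2 fold changes were -0.022 (Tlr1, standard error 0.079) and 0.050 (Tlr6, standard error 0.081). Without EGCG replicate 2 these became 0.014 and -0.012.

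Tlr1 and Tlr6 are uncertain in their separate counts, because they are neighbors that share stretches of identical sequence. Both lie on the minus strand of chromosome 5, Tlr1 (ENSMUSG00000044827) from 64924679 to 64933563 and Tlr6 (ENSMUSG00000051498) from 64952031 to 64960097, with 18467 bases between them. Of the 31-base words in the transcripts of Tlr1, 20.02% also occurred in transcripts of other genes, and 18.3% in those of Tlr6. For Tlr6 the share was 16.6%, of which nearly all (16.4% of its words) was shared with Tlr1. The longest run that their GENCODE M21 transcripts have in common is 229 bases long and lies in coding sequence of each gene, at chr5:64925537-64925765 in exon 4 of 4 of Tlr1 and at chr5:64953828-64954056 in exon 2 of 2 of Tlr6 (GRCm38). It is shown 5′ to 3′ because a read from within it carries no base that tells the genes apart, and all of it is shared, so that no part is in capitals.

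Tlr1 and Tlr6: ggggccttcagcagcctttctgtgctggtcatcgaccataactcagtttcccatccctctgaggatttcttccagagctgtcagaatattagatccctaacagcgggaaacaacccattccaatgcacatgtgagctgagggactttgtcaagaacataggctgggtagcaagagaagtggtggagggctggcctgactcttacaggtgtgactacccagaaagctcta

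How reads that fit both genes were treated is not given in the sources used here. Tlr2, Tlr7, Tlr9, Tlr13 and Cd14 had 0 words in common with transcripts of other genes, and the share was 0.667% for Tlr4 and 1.67% for Ly96. Myd88 (8.93%) shared its words with Acaa1a, a peroxisomal thiolase gene on the opposite strand, whose exons cover 290 bases (11.3%) of the exonic length of Myd88. Since strand was not used in the counting, reads from that stretch cannot be assigned.

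Of the nucleic acid receptors of endosomes, Tlr7 (ENSMUSG00000044583, chromosome X, 167304929 to 167330558) had the lowest level per length and the second lowest p of the members. Its level was 35.65 and 37.55 CPM in control and 31.3 and 30.5 CPM in EGCG libraries. The groups did not overlap, and the replicates of each group lay closer to each other than to the other group. The log2 fold change of Tlr7 was -0.24 (standard error 0.093, 95% interval from -0.44 to -0.0445), with an unadjusted p of 0.0201 and an adjusted p of 0.321 from edgeR. The adjusted p ran from 0.210 to 0.713 over the 10 alternatives and from 0.455 to 0.632 with a library left out, where the log2 fold change stayed between -0.28 and -0.20.

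Tlr8, the neighbor of Tlr7 on chromosome X with 40599 bases between them, had a similar difference, although it is not among the 10 members. It was at 56.85 and 63.35 CPM in control and at 47.4 and 47.4 CPM in EGCG libraries, and the groups did not overlap. Its log2 fold change was -0.34 (standard error 0.0875, edgeR adjusted p of 0.138). Scaled by library size alone, the edgeR adjusted p was 0.0433, and over the 10 alternatives it ran up to 0.659. Macrophages are known to express both receptors, and a sort on Gr-1 should remove most of them, since they carry little of it. Their markers were counted in every library all the same. All 10 macrophage markers had lower means with EGCG (0 called, 5 at an unadjusted p under 0.05), and their summed level was 428.7 and 419.8 CPM in control against 325.5 and 349.9 CPM in EGCG libraries. Of the 9 monocyte markers, 8 were lower (0 called, 4 at an unadjusted p under 0.05), with sums of 1675 and 1417 CPM against 1248 and 1327 CPM. No marker of either list was at 0. Lower means were also found for all 5 tested endothelial markers (4 at an unadjusted p under 0.05, median log2 fold change -0.75), whose sums were 115.3 and 127.9 against 95.1 and 100.1 CPM. The same held for 6 of 7 eosinophil and basophil markers (2 at an unadjusted p under 0.05), with sums of 1180 and 1054 against 1025 and 878.2 CPM, and for 5 of 6 conventional dendritic cell markers (1 at an unadjusted p under 0.05), with sums of 118.6 and 107.9 against 99.5 and 112.1 CPM. Most of the endothelial sum was Pecam1 (87.3 to 111 CPM) and most of the dendritic cell sum Itgax (89.4 to 107.4 CPM), both of which myeloid cells of other kinds are known to express, so that these sums say little about those cell types. None of the markers in these lists was called, beside 0.150% of all tested genes. Of all tested genes, 12.2% had an unadjusted p under 0.05 and 49.4% were lower. The Gr-1 sort is not meant to collect endothelial or dendritic cells either. The part of the listed cell types in the values of Tlr7 and Tlr8 was not tested, and in bulk libraries fewer cells of a type and less RNA per cell cannot be told apart.

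Tlr9 and Tlr13 had overlapping groups. Tlr9 (ENSMUSG00000045322, chromosome 9, 106222598 to 106226883) was at 38.45 and 39.6 CPM in the control libraries, and the EGCG libraries enclosed them with 34.25 and 41.5 CPM. Its log2 fold change was -0.044 (standard error 0.10), and it turned from -0.19 without EGCG replicate 2 to 0.0905 without EGCG replicate 1. Markers of B cells and plasmacytoid dendritic cells, which are known for high TLR9, were not lower with EGCG as sums: B cell markers were at 1797 and 1890 CPM in control and 1991 and 2044 CPM in EGCG libraries (6 of 8 higher, 0 called), and plasmacytoid markers at 51.7 and 56.8 against 58.8 and 53.2 CPM (5 of 6 higher, 0 called). Most of the B cell sum was Ighm (1404 and 1480 CPM in control, 1551 and 1642 CPM in EGCG libraries). Most of the plasmacytoid sum was Spib, which B cells also express (43.9 and 49.0 CPM in control, 49.5 and 44.2 CPM in EGCG libraries), so that it says little about plasmacytoid cells, and Siglech, a more specific marker, was at 1.29 to 2.10 CPM. The Gr-1 sort is not meant to collect B cells, yet their markers were counted in every library. Over all tested genes, 0.150% were called and 49.4% were lower. The part of B cells and plasmacytoid dendritic cells in the Tlr9 values was not tested. Tlr13 (ENSMUSG00000033777, chromosome X, 106143204 to 106160493) was at 246 and 277.3 CPM in control and 268.8 and 243.5 CPM in EGCG libraries. This made it the most abundant of the endosomal receptors per length. The log2 fold change of Tlr13 was -0.030 (standard error 0.083), and it became 0.061 without control replicate 2 and 0.040 without EGCG replicate 2. Tlr13 lies on the same chromosome as Tlr7 and Tlr8.

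Myd88 (ENSMUSG00000032508, chromosome 9, 119335934 to 119341411), the adaptor that the receptors above share, was at 144.1 and 156.2 CPM in the control libraries and at 155.9 and 159.8 CPM in the EGCG libraries. Control replicate 1 was the lowest library, and the groups overlapped narrowly. Its log2 fold change was 0.072 (standard error 0.076), the interval reached from 0.94-fold to 1.18-fold, and the adjusted p from edgeR was 0.754. Without control replicate 1 the log2 fold change was 0.019, and without control replicate 2 it was 0.13.

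The pathway around the members was described with lists written by role. Over all tested genes, 0.150% were called, 12.2% had an unadjusted p under 0.05 and 49.4% were lower. The counts of each list below stand beside these shares. Of 12 genes for folding, trafficking and ligand transfer, 0 were called (1 at an unadjusted p under 0.05), 8 were lower and 4 higher, with a median log2 fold change of -0.066. Unc93b1, the chaperone that carries the endosomal receptors to their compartment, was at 518 to 539 CPM in the 4 libraries and is named after its values were seen. The genes with the lowest p were Lrrc59, a receptor trafficking factor (log2 fold change -0.20, standard error 0.0850), Lbp, which passes lipopolysaccharide to CD14 (0.19, standard error 0.089), and Slc15a3, an endolysosomal transporter (-0.16, standard error 0.077). Their adjusted p values from edgeR were 0.366, 0.411 and 0.441. Without control replicate 1, 5 of the 12 genes were lower and the median was 0.014. Cd36, a scavenger receptor that presents lipids to TLR2, was at 60.2 and 38.4 CPM in control and 41.1 and 42.05 CPM in EGCG libraries, and it was called without control replicate 2 (log2 fold change -0.53, adjusted p of 0.0025 from edgeR), whereas its log2 fold change over all libraries was -0.25 (adjusted p of 0.549). It is named after its values were seen.

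Among 24 adaptors, kinases and interferon regulatory factors, 0 were called (3 at an unadjusted p under 0.05), 17 were lower and 7 higher, and the median log2 fold change was -0.047. With the length correction 11 of them were lower and the median was 0.0081. With a library left out the median ran from -0.081 to -0.023. Traf3, a ubiquitin ligase of the interferon arm, was at 146.4 and 142.1 CPM in control and 128.6 and 120.6 CPM in EGCG libraries, and Tbk1, the kinase downstream of it, at 126.8 and 126.7 against 114.8 and 106.7 CPM. The log2 fold changes of these genes were -0.21 (adjusted p of 0.280 from edgeR) and -0.19 (0.324), and the groups of each did not overlap. Irf7, the interferon regulatory factor of TLR7 and TLR9 signaling, was at 151.9 and 207.3 CPM against 129.8 and 157.9 CPM, which overlapped, and had a log2 fold change of -0.32 (standard error 0.12, edgeR adjusted p of 0.324). It passed the threshold without control replicate 1 (-0.52, adjusted p of 0.0019) and without EGCG replicate 2 (-0.47, adjusted p of 0.0021), while it was -0.076 without control replicate 2.

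Negative regulators were represented by 15 entries, since Lilrb4a names 2 gene identifiers. Of the 14 tested, 0 were called (2 at an unadjusted p under 0.05), 7 were lower and 7 higher, and the median log2 fold change was 0.0028. This median ran from -0.038 to 0.056 with a library left out. The inhibitory receptor gene Lilrb4a (ENSMUSG00000112148) was at 755.8 and 797.9 CPM in control and 678.7 and 573.9 CPM in EGCG libraries. On the log2 scale the fold change was -0.31 (standard error 0.088, edgeR adjusted p of 0.188). Lilrb4a was called with library size only (edgeR adjusted p of 0.0451). Its log2 fold change was -0.43 without EGCG replicate 1 and -0.19 without EGCG replicate 2, and its reads may be split with near-identical relatives. Tnfaip3, which encodes the deubiquitinase A20, had a log2 fold change of -0.17 (standard error 0.080), and Pdlim2, which promotes the removal of nuclear NF-κB, had 0.15 (standard error 0.075), with adjusted p values of 0.406 and 0.431 from edgeR.

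Genes that Toll-like receptor signaling is known to induce were the list with the lowest median apart from the 2 tested receptors outside the members. Of 24 tested, 0 were called (2 at an unadjusted p under 0.05), 19 were lower and 5 higher (79.2% lower), and the median log2 fold change was -0.15. Over all tested genes, 0.150% were called, 12.2% had an unadjusted p under 0.05 and 49.4% were lower. Without control replicate 2, however, 11 of the 24 were lower and the median was 0.017. The monocyte markers (8 of 9 lower, median log2 fold change -0.17, 0 called) and the macrophage markers (10 of 10 lower, median -0.32, 0 called) had lower means as well, as had the endothelial, eosinophil and basophil, and conventional dendritic cell markers given with their sums beside Tlr8. The Gr-1 sort is not meant to collect macrophages, endothelial cells or dendritic cells, yet their markers were counted in every library. The part of the listed cell types in the induced genes was not tested. Cxcl3, a neutrophil-attracting chemokine, was at 9.42 and 11.4 CPM in control and 4.85 and 6.61 CPM in EGCG libraries. Its groups did not overlap, and the log2 fold change was -0.86 (standard error 0.18, edgeR adjusted p of 0.0826). Cxcl3 passed the threshold with library size only (adjusted p of 0.0160), with the robust fit (0.04675), when control replicate 1 (0.0109) or EGCG replicate 2 (0.00020) was left out. The study had named Cxcl3 from these same samples together with a public microarray comparison of healthy and tumor-bearing mice. It also reported lower Cxcl3 with EGCG by qRT-PCR. The direction of Cxcl3 in these libraries is therefore not independent of the RNA-seq result of the study. Acod1, which makes itaconate in activated myeloid cells, was at 316.3 and 360.2 CPM against 270.4 and 292.1 CPM (log2 fold change -0.27, standard error 0.083, edgeR adjusted p of 0.228). Cxcl2, a chemokine of the same cluster as Cxcl3, had overlapping groups (127.4 and 165.6 against 119.1 and 132.1 CPM). For Cxcl2 edgeR gave -0.22 on the log2 scale (standard error 0.11, adjusted p of 0.418). With a library left out, this difference ran from -0.39 (without control replicate 1) to -0.018 (without control replicate 2), so that it nearly vanished in the latter fit. Cxcl10, an interferon-induced chemokine, was at 18.0 and 30.3 CPM in control and 14.45 and 25.6 CPM in EGCG libraries (log2 fold change -0.27, adjusted p of 0.695 from edgeR), and was called without EGCG replicate 2 (-0.74, adjusted p of 0.00053). Il1b, at 769.3 and 941.3 CPM in control and 870.2 and 863.2 CPM in EGCG libraries, had a log2 fold change of 0.019. Cxcl10 and Il1b are named after their values were seen.

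**Figure D4:**
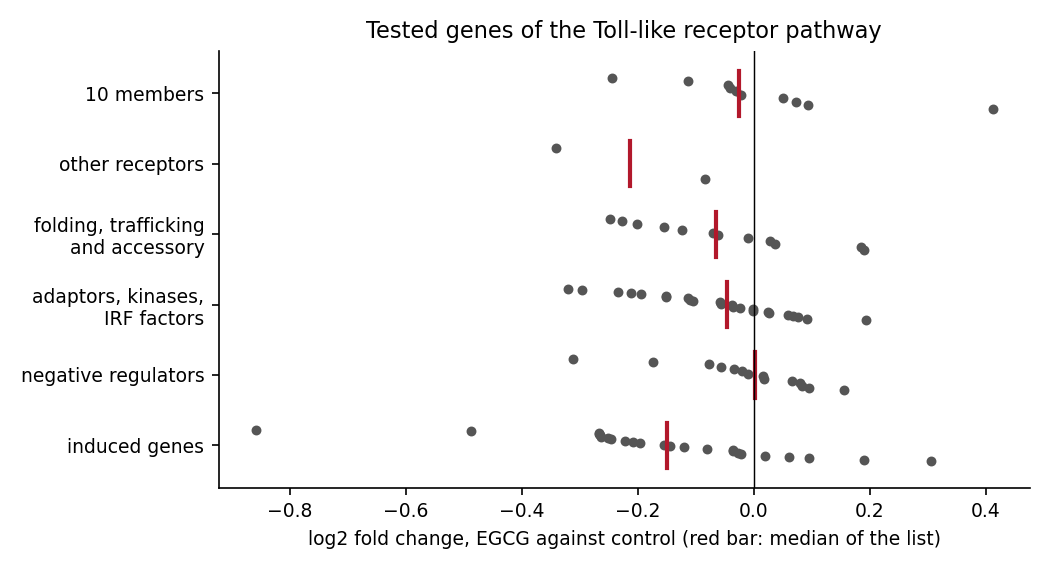
Log2 fold change (EGCG against control) of each tested gene in the lists of the Toll-like receptor pathway, 1 point per gene, with the median of each list as a red bar. The members have a median of -0.026 and the 24 induced genes one of -0.15, and the lowest point is Cxcl3 at -0.86.

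Of the 76 tested genes in these lists, those whose log2 CPM over the 4 libraries was most like that of Ly96 were Cyld, a deubiquitinase (Pearson correlation 0.989), Il12b (0.921, with 7 to 12 counts per library) and the less counted Lilrb4a identifier ENSMUSG00000062593 (0.917, with 28 to 31 counts). These are descriptions over 4 libraries that share their group structure.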

How the data were processed

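RNA-seq libraries of control and EGCG-treated MDSCs (2 each, grouped by their labels) were used. Alignment by the authors was to GRCm38 (STAR 2.6.0c). They counted them on genes of Ensembl release 91 with featureCounts 1.6.2 without regard to strand, and deposited the whole-number counts without normalization. There were 0 columns of other samples and 0 rows without a gene name.

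Genes were filtered with filterByExpr (minimum count of 10), scaled by TMM and compared in edgeR 4.0.16 (quasi-likelihood test, no block). Benjamini-Hochberg adjustment ran over 14682 tested genes with a threshold of 0.05. Test and threshold follow the methods of the study, which name neither filter nor scaling. The calls do not reproduce those of the study. It reported more genes shared with a public microarray comparison alone than the 22 genes called here, and the cause was not tested. The standard error is the log2 fold change divided by the square root of F. Alternatives used limma 3.58.1 and DESeq2 1.42.0, other filters and scalings, a robust fit, a replicate block, a loess length correction (span of 0.4) and each library left out; the edgeR, DESeq2, limma-voom and length-corrected fits were tested on simulated data. Lengths and positions were those of GENCODE M21 (GRCm38), where 53360 of 53465 identifiers were found; 16 tested genes had no length. Counting intervals cover counting error only.

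The members and lists were chosen with earlier results of these data known. Named genes are all members, the other Toll-like receptors and, in each further list, called genes and up to 3 more with the lowest p among those with at least 10 counts in every library. In addition, the 3 listed genes most correlated with the member of lowest p are named. Other tools were R 4.3.3, Python 3.11.15, pandas 2.3.3 and SciPy 1.17.1. The reads, the microarray data and the qRT-PCR values were not used here.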

Additional observations from a re-analysis of the deposited data

How the results depend on the processing

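All 10 members kept their direction under the 10 alternatives of filter, scaling, test and correction. With a library left out, 6 of 10 kept it, and the log2 fold change ran from -0.055 to 0.014 for Tlr1, from -0.012 to 0.11 for Tlr6, from -0.19 to 0.0905 for Tlr9 and from -0.11 to 0.061 for Tlr13. The number of members called was 0 under the 10 alternatives (DESeq2 gave Ly96 no adjusted p) and 0 to 1 with a library left out. The members' median log2 fold change was -0.061 with library size only and -0.044 to 0.033 with a library left out. At an unadjusted p under 0.05 there were 2 members, 1 with DESeq2 and 0 to 2 with a library left out. With library size only, 1 other receptor, 1 negative regulator and 1 induced gene were called, and the robust fit called 1 induced gene. With a library left out the calls were 0 to 1 for folding and trafficking genes, 0 to 1 for adaptors and kinases, 0 to 1 for negative regulators and 0 to 2 for induced genes. Lower means were found for 3 (EGCG replicate 1 left out) and 4 (control replicate 2 left out) of the 14 negative regulators. Of all tested genes, 22 were called, 0 with no filter on low counts, 151 with library size only, 11 with upper-quartile scaling, 68 with DESeq2, 63 with the robust fit, 7 with the length correction and 77 to 354 with a library left out. The cause of these differences was not tested.

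With the replicate block, 0 members and 30 of all tested genes were called. The labels do not say that the numbers pair the libraries, and deviations of same-numbered libraries from their group means had a correlation of 0.0336 across 14682 genes. In EGCG replicate 2 alone, 6 of 10 members held the rank of level per length that they had in the mean of the 4 libraries. A group left with 1 library was assumed to vary like the other group. With 2 libraries a group, differences as small as those of most members could not be told from the spread between libraries.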
